A study of Mus musculus with 33 samples.

Results

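The comparison described here asks whether cells that lack ZMYND8 respond to activation as wild-type cells do. It rests on 24 of the 33 samples of the series, the total RNA libraries of CH12, an IgM-bearing line grown from a mouse B cell lymphoma that can switch to IgA in culture. They were chosen because they form a complete crossing of genotype and activation. The lines were the parental cells (WT), a clone of wild-type genotype (WT clone), and clones KO1 and KO2 with ZMYND8 knocked out, each unactivated or activated, with 3 cultures in each of the 8 groups, all held in culture for 48 h. The labels name neither the activating stimulus, nor the allele or method of the knockout, nor how the WT clone was made. Each genotype is thus represented by 2 lines, and KO1 and KO2 are single clones. The measure was a difference of differences: the log2 change on activation averaged over KO1 and KO2, minus that averaged over parental WT and the WT clone. A positive value means that the change on activation was higher in the KO lines, either because a rise was larger or because a fall was smaller.

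ZMYND8 carries PHD, bromo and PWWP domains, which recognise modified histones, and works with transcriptional regulators at promoters and enhancers. In B cells, activation starts transcription of the immunoglobulin heavy chain (Igh) constant genes that are to be recombined, and the enzyme AID then acts on their switch regions during class switching. The Igh locus is governed by the mu enhancer, which lies between the joining segments and Ighm, and by the 3 prime regulatory region downstream of Igha.

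The tables give estimated counts for 121400 transcripts, 49745 numbered genomic regions and 7 named Igh elements. Totals were 28.99 to 34.07 M per library, with a median of 32.1 M. A gene value below is the sum of the regions lying wholly inside 1 RefSeq gene, so it describes RNA from part of a gene, of unknown strand and unknown exon or intron content, and is no measure of its mature mRNA. Levels are library-size-scaled counts (CPM) and are given as lowest, median and highest of the 6 libraries of a genotype and state, while changes and their differences are log2 values with standard errors. Zmynd8 itself, with 6 regions inside the gene, had gene values of 1.23, 1.47 and 1.97 CPM in unactivated WT and 1.62, 1.70 and 2.64 CPM in unactivated KO libraries, and of 2.02, 2.35 and 3.22 against 2.83, 3.34 and 4.27 CPM after activation. Since the disrupted part of the gene is not given in the sources used here, these levels do not check the knockout. The difference of its activation change was 0.20 ± 0.24 (adjusted p = 0.85, edgeR). A pair of unactivated libraries, parental WT replicate 3 and WT clone replicate 2, stood apart on the second principal component, at 96.1 and 104 against -50.7 to 64.7 for the other 22. Called gene values that were lost without them are named as they arise.

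Of the markers of B cells, 5 of 11 had gene values (Cd79a, Pax5, Ebf1, Cd22 and Cd24a), and their sum was 14.6 to 40.2 CPM in unactivated and 25.5 to 46.7 CPM in activated WT libraries, against 29.1 to 43.1 and 44.0 to 61.1 CPM in KO libraries. For plasma cells, 3 of 5 markers had gene values (Prdm1, Sdc1 and Irf4). Their sum was 0.774 to 2.73 and 1.70 to 2.91 CPM in unactivated and activated WT libraries, and 2.12 to 2.82 and 3.28 to 4.98 CPM in KO libraries, so that every activated KO library lay above every activated WT library. The 3 measured T lineage markers of 8 summed to at most 1.81 CPM in any library, the 3 measured myeloid markers of 7 to at most 1.23 CPM, and the 2 measured of 8 erythroid and stromal markers to at most 2.63 CPM, all of it Pecam1, since Col1a1 was at 0 in every library. The part of these sums in the results below was not tested, and in total RNA of a culture fewer cells of a type and less RNA per cell cannot be told apart.

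Most of the activation response did not pass the test for a difference between genotypes, and where it did, the response was more often higher in the KO lines. With a Benjamini-Hochberg adjusted p under 0.05 in edgeR's quasi-likelihood test over all libraries, 404 of 49806 transcripts (0.811%) had a higher and 216 (0.434%) a lower activation change in KO. Among regions 64 of 11264 (0.568%) were higher and 20 (0.178%) lower, 84 or 0.746% in all, and among gene values 19 of 4485 (0.424%) were higher and 6 (0.134%) lower. The median difference over all tested was 0.03 for transcripts, 0.13 for regions and 0.12 for gene values. With the gene values scaled by their own factors, their median was 0.03, and 20 were called higher and 11 lower. The balance of directions thus depended in part on the scaling. At an unadjusted p under 0.05 the shares were 10.6% of transcripts, 8.68% of regions and 10.8% of gene values. DESeq2 made more calls at the same threshold, 1626 transcripts (3.26%), 165 regions (1.46%) and 52 gene values (1.16%), and 600 of the 620 transcripts, 70 of the 84 regions and 16 of the 25 gene values called by edgeR were among them. For 8 of the other 9 gene values DESeq2 gave no adjusted p. The p-values measure the spread between cultures. With the counts of a line and state summed, so that the spread is taken between lines with 2 residual degrees of freedom, no transcript or region and 6 gene values passed in edgeR's quasi-likelihood test (DESeq2 was not run on these sums). Only 3 of the 25 called gene values (Ctnnbl1, Ptpn12 and Zfp36l1) were among these 6. Coro2a, Igha and Adamts14 (adjusted p = 0.13, 0.111 and 0.0706) and the mu enhancer element (0.551) did not pass that test. The calls therefore speak for these 4 lines, and what belongs to the genotype and what belongs to the clones cannot be told apart beyond the comparisons of lines given next.

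Differences between lines of opposite genotype exceeded those between lines of the same genotype at equal group sizes. Between the WT clone and parental WT, the activation change differed for 6 transcripts (0.012%), 2 regions (0.0178%) and no gene value (158 at an unadjusted p under 0.05). Between KO2 and KO1 it differed for 4 transcripts (0.00803%) and for no region or gene value (326 and 146 at an unadjusted p under 0.05). Pairs of lines were tested with edgeR alone. KO1 differed from parental WT at 77 transcripts (0.155%) and 5 regions (0.0444%), and KO2 at 87 (0.175%) and 8 (0.071%), in both cases with no gene value (289 and 265 at an unadjusted p under 0.05). Against the WT clone the counts were larger, with 227 transcripts (0.456%), 25 regions (0.222%) and 6 gene values (0.134%) for KO1, and 293 (0.588%), 36 (0.32%) and 12 (0.268%) for KO2. Thus the distance from KO depended on which WT line was taken. The WT clone's change lay farther from the KO mean than parental WT's for 22 of the 25 called gene values (88%), against 52.1% of all gene values tested. This was also so for 452 of the 620 called transcripts (72.9%), against 56% of all. With parental WT as the only WT line, 110 transcripts remained higher and 42 lower, 7 regions higher and 5 lower, and no gene value was called. Of the 25 called gene values, 19 stayed called with the WT clone as the only WT line, 6 with KO1 and 14 with KO2 as the only KO line. Without the pair of libraries that stood apart, the same-genotype pairs gave 8 and 4 transcripts and the KO lines against parental WT 73 and 119.

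**Figure D1:**
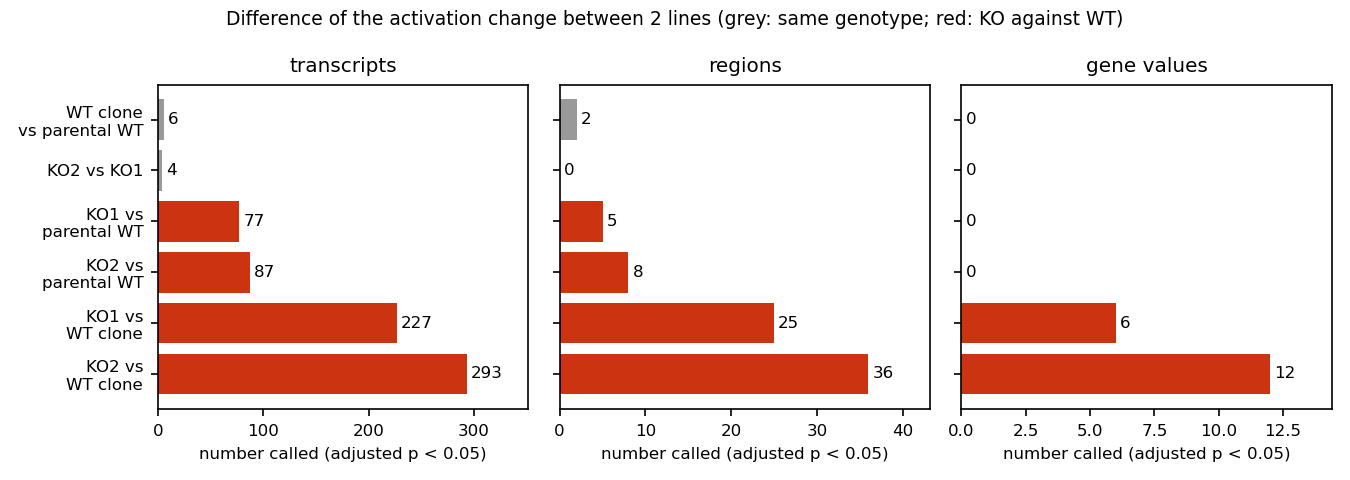
Numbers of transcripts, regions and gene values whose activation change differed between 2 lines (x axes, adjusted p under 0.05), for the 2 pairs of the same genotype (grey) and the 4 pairs of KO with WT (red). Transcript counts were 6 and 4 within a genotype and 77 to 293 between genotypes, and the pairs with the WT clone gave the largest counts in all 3 panels.

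The signs of called differences were shared by the lines. The difference had the same sign whichever KO line was set against whichever WT line (4 pairings) for 609 of the 620 called transcripts, 84 of the 84 regions and 24 of the 25 gene values, while 41.9% of all tested transcripts and 43.6% of all tested gene values did so. Since a called mean is large against the spread, part of this agreement follows from the call. Of the transcripts, 33 were called in each of the 4 pairings on their own, and 285 in none of them. The median size of a called difference was 0.94 log2 units for transcripts, 1.46 for regions and 1.42 for gene values, and 286 of the 620 transcripts differed by more than 1 unit, a factor of 2.

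Called differences took several forms. Of the 404 transcripts with a higher change in KO, 124 fell less in KO than in WT by the fitted means, 143 rose more, and 137 fell in WT and rose in KO. Of the 216 with a lower change, 65 rose less in KO, 65 fell further, and 86 rose in WT and fell in KO. Among all tested transcripts those 6 forms held 19.8%, 17.7%, 15.7%, 17.3%, 16.2% and 13.4%. For gene values, 7 fell less, 5 rose more and 7 went from a fall to a rise, and on the lower side 3 rose less and 3 went from a rise to a fall. Among all tested gene values those forms held 11.2%, 34.8%, 16.5%, 21% and 9.34%. The gap between the genotypes passed the test before activation but not after it for 220 of the 620 transcripts, after but not before for 216, and in both states for 170, with the opposite sign in the 2 states for 39 of these. Over all transcripts, 7.33% passed the test between genotypes when unactivated and 6.41% when activated. The shares were 6.38% and 7.02% of regions, and 6.6% and 8.7% of gene values. Activation itself changed 20.5% of transcripts, 19.3% of regions and 21.9% of gene values in the WT lines, and 18.8%, 23.2% and 28.3% in the KO lines. For regions the counts were 28 only before, 38 only after and 15 in both states, and for gene values 9, 12 and 4.

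**Figure D2:**
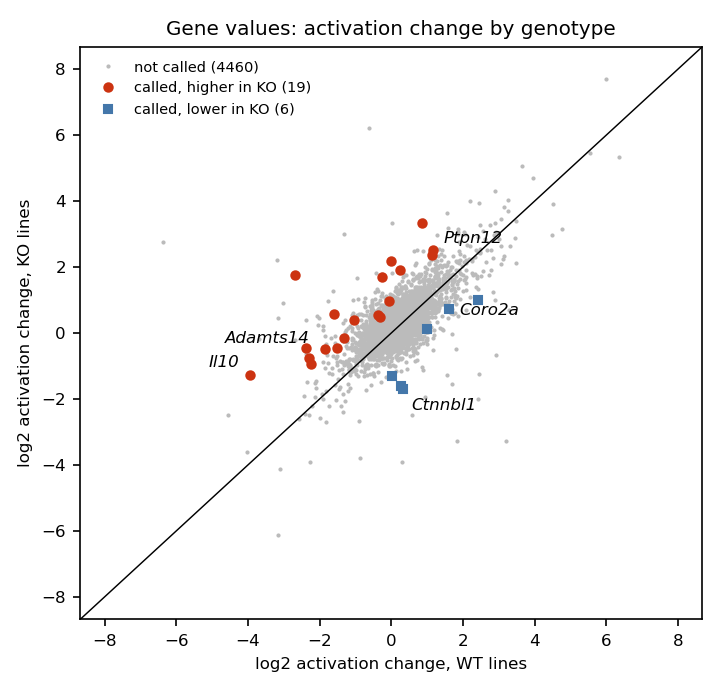
Log2 activation change of 4485 gene values in the KO lines (y axis) against that in the WT lines (x axis). Grey points were not called, red circles are the 19 with a higher and blue squares the 6 with a lower change in KO, and the diagonal marks equal change; Adamts14 and Il10 lie at a fall in WT that was smaller in KO, and Ctnnbl1 at a fall in KO alone.

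The gene values whose rise on activation was smaller in the KO lines were Coro2a, Igha and Ifi203. Coro2a encodes a coronin, one of a family of WD repeat proteins that bind actin, and is found in nuclear corepressor complexes. Its gene value summed 7 regions between chr4:46536937-46601929. In unactivated libraries it was 6.08, 7.59 and 9.70 CPM in WT and 7.40, 8.10 and 8.37 CPM in KO. After activation it was 21.2, 22.5 and 25.4 CPM in WT but 11.3, 13.7 and 14.8 CPM in KO. The genotypes overlapped at rest and did not overlap after activation. Parental WT changed by 1.38 ± 0.16, the WT clone by 1.84 ± 0.16, KO1 by 0.91 ± 0.16 and KO2 by 0.56 ± 0.16, and the difference was -0.87 ± 0.16 (adjusted p = 0.00515). Of 4 Coro2a regions that could be tested singly, 2 had a negative difference, and the values of the 4 ran from -1.05 to 0.25. Only 1 was called, of 1635 bases at chr4:46580496-46582130. It reached a group mean of up to 20.4 CPM, against up to 23.2 CPM for the gene value, which thus rests mostly on that region.

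Igha, the constant gene of the IgA heavy chain at chr12:113256204-113260236, was represented by 1 region of 641 bases inside it. It was 4.02, 4.85 and 5.17 CPM in unactivated WT and 8.04, 9.10 and 11.2 CPM in activated WT libraries. In KO libraries it was 7.88, 8.60 and 8.84 CPM before and 8.24, 9.31 and 9.81 CPM after activation. Here the unactivated KO libraries were already near the level of activated parental WT (8.04 to 9.07 CPM). They were below every activated library of the WT clone (9.13 to 11.2 CPM). The genotypes did not overlap at rest and overlapped after activation. The changes of 0.80 ± 0.16 and 1.21 ± 0.16 in parental WT and the WT clone stood against 0.01 ± 0.16 and 0.21 ± 0.16 in KO1 and KO2 (difference -0.89 ± 0.16, adjusted p = 0.00465). The constant genes of this locus are alike, so the sharing of reads among them makes the value uncertain.

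Ifi203, of the interferon-inducible p200 family, also rose less in KO (difference -1.42 ± 0.31, adjusted p = 0.0278), from at most 0.572 CPM at rest to 1.22, 1.91 and 2.27 CPM in WT and 0.364, 0.634 and 0.774 CPM in KO. It belongs to a family of near copies, and its call was lost without the pair of libraries that stood apart (adjusted p = 0.078) and with the WT clone as the only WT line (-0.98, adjusted p = 0.347).

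A second set of genes fell in the KO lines but passed no test for a change in the WT lines. Ctnnbl1, at chr2:157737401-157891903, encodes a spliceosome-associated protein that is known to bind AID. Its 6 regions summed to 1.37, 2.40 and 2.99 CPM in unactivated WT and 4.31, 6.44 and 8.95 CPM in unactivated KO libraries, which did not overlap. After activation the levels were 1.51, 2.55 and 4.26 CPM in WT and 1.24, 1.85 and 3.35 CPM in KO, and they overlapped. Parental WT changed by -0.18 ± 0.29, the WT clone by 0.85 ± 0.29, KO1 by -1.61 ± 0.28 and KO2 by -1.79 ± 0.29, a difference of -2.03 ± 0.29 (adjusted p = 0.000695). All 3 Ctnnbl1 regions that could be tested singly had a lower activation change in KO, from -2.42 to -1.44, and 2 of them were called. Ctnnbl1 also passed with counts summed per line (adjusted p = 0.0354).

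Tusc3, a subunit of the oligosaccharyltransferase of the endoplasmic reticulum, showed the same pattern at lower level. It was 0.668, 0.990 and 1.23 CPM in unactivated WT and 2.67, 3.32 and 4.12 CPM in unactivated KO libraries, and 0.751, 1.01 and 1.39 against 0.898, 1.28 and 1.75 CPM after activation (difference -1.34 ± 0.26, adjusted p = 0.00909). Drd3, a dopamine receptor, was 0.0986, 0.348 and 0.536 CPM in unactivated WT and 0.936, 1.54 and 2.80 CPM in unactivated KO libraries, with at most 0.638 CPM in activated libraries of either genotype (difference -1.87 ± 0.42, adjusted p = 0.0331). In 12 of the 24 fits that each left out 1 library, Drd3 was no longer called. Both genes were higher in every unactivated KO library than in any unactivated WT library.

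Other genes fell on activation in WT and kept more of their level in KO. Adamts14, at chr10:61197112-61273419, encodes a secreted metalloproteinase of the procollagen-processing kind. In WT it was 16.98, 21.1 and 24.6 CPM before and 3.54, 5.76 and 8.57 CPM after activation. In KO it was 31.1, 34.9 and 40.7 CPM before and 15.6, 25.4 and 35.1 CPM after. The genotypes did not overlap in either state, and the gap widened from 0.77 to 2.13 log2 units. Parental WT changed by -1.49 ± 0.21, the WT clone by -2.22 ± 0.22, KO1 by -0.70 ± 0.21 and KO2 by -0.28 ± 0.21 (difference 1.36 ± 0.21, adjusted p = 0.00141). Of 2 Adamts14 regions that could be tested singly, 1 was called, with a difference of 1.41, and the other had 0.17. The called region, of 5091 bases, reached a group mean of up to 36.8 CPM, against up to 36.9 CPM for the gene value. The gene value thus rests almost wholly on that region.

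Il10 encodes an anti-inflammatory cytokine that some B cells secrete. Its single region of 1065 bases, inside the gene at chr1:131019845-131024970, fell in WT from 1.81, 2.90 and 4.77 CPM to 0, 0.322 and 1.13 CPM. In KO it went from 2.58, 4.39 and 6.24 CPM to 0.925, 1.54 and 2.78 CPM, so the genotypes overlapped in both states. The lines of WT were unlike here, with a change of -2.26 ± 0.36 in parental WT and -5.63 ± 0.58 in the WT clone, whose activated libraries held 0 to 0.0945 CPM. KO1 changed by -1.73 ± 0.34 and KO2 by -0.84 ± 0.33. The difference was 2.66 ± 0.45 (adjusted p = 0.00443), but 0.97 (adjusted p = 0.647) with parental WT as the only WT line and 1.74 (adjusted p = 0.294) with counts summed per line.

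Gas7, an adaptor protein linked to the actin cytoskeleton, had the opposite order at rest. Its 15 regions summed to 21.7, 27.7 and 38.0 CPM in unactivated WT and 9.60, 10.3 and 11.7 CPM in unactivated KO libraries, with no overlap. After activation the genotypes overlapped, at 2.86, 6.11 and 11.3 CPM in WT and 3.67, 5.41 and 7.67 CPM in KO. The changes of -1.83 ± 0.29 and -2.67 ± 0.30 in parental WT and the WT clone were larger than those of -0.89 ± 0.29 and -1.01 ± 0.29 in KO1 and KO2 (difference 1.30 ± 0.29, adjusted p = 0.0289). The call was lost without the pair of libraries that stood apart (1.08, adjusted p = 0.0695) and in 10 of the 24 fits that each left out 1 library.

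Blk, a Src family kinase of the B cell receptor pathway, was 3.31, 4.19 and 5.16 CPM in unactivated and 0.639, 1.52 and 2.66 CPM in activated WT libraries, against 4.95, 5.50 and 7.16 CPM and 2.66, 3.88 and 6.61 CPM in KO. The genotypes overlapped at rest and not after activation. The changes of the lines did not divide by genotype, at -0.81 ± 0.23 in parental WT and -0.91 ± 0.23 in KO1, against -2.21 ± 0.25 in the WT clone and -0.02 ± 0.22 in KO2. Its difference of 1.04 ± 0.23 (adjusted p = 0.0304) became 0.34 with parental WT as the only WT line (adjusted p = 0.85). It was also lost without the pair of libraries that stood apart (adjusted p = 0.0663) and in 13 of the 24 fits that left out 1 library.

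Other called genes of this form had lower levels. Lrmp, a lymphoid-restricted membrane protein of germinal centre B cells, kept 1.13, 1.42 and 2.11 CPM in activated KO against 0.122, 0.333 and 0.785 CPM in activated WT libraries, with overlap at rest and none after activation (difference 1.95 ± 0.34, adjusted p = 0.00465). Nrros, which chaperones latent TGF-beta, had 0.836, 1.65 and 2.06 CPM in activated KO and 0.182, 0.878 and 0.976 CPM in activated WT libraries, which overlapped (difference 1.53 ± 0.31, adjusted p = 0.0161). Adap1, a protein that acts on Arf GTPases, fell from 2.80 to 1.08 CPM in WT and from 2.04 to 1.78 CPM in KO as medians, and its activated levels did not overlap (difference 1.18 ± 0.20, adjusted p = 0.00443).

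A further set rose in KO, by more than in WT. Ptpn12 encodes PTP-PEST, a cytoplasmic tyrosine phosphatase that acts on adhesion and lymphocyte signalling proteins, and lies at chr5:20986645-21055911. Its 3 regions summed to 1.46, 1.78 and 2.52 CPM in unactivated WT and 0.905, 1.09 and 1.33 CPM in unactivated KO libraries. After activation they summed to 3.32, 4.16 and 5.46 CPM in WT and 5.33, 6.20 and 7.0 CPM in KO. KO was thus the lower genotype before activation, without overlap, and the higher one by its median after it, with overlap. The 2 lines of a genotype were close, with changes of 1.20 ± 0.23 and 1.16 ± 0.23 in parental WT and the WT clone and of 2.63 ± 0.24 and 2.42 ± 0.24 in KO1 and KO2. The difference was 1.35 ± 0.23 (adjusted p = 0.00443) and passed with counts summed per line (adjusted p = 0.0356). All 3 regions, tested singly, had a higher activation change in KO, with differences from 0.78 to 3.02.

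Abr, at chr11:76416732-76623324, was 2.23, 2.46 and 3.94 CPM in unactivated and 1.91, 2.54 and 3.49 CPM in activated WT libraries. In KO it was 1.96, 2.09 and 2.56 CPM before and 3.36, 4.02 and 6.45 CPM after activation, with overlap of the genotypes in both states. Its changes were -0.19 ± 0.22, 0.07 ± 0.21, 0.72 ± 0.21 and 1.22 ± 0.21 in parental WT, the WT clone, KO1 and KO2 (difference 1.03 ± 0.21, adjusted p = 0.0161). The call was lost with the WT clone as the only WT line (adjusted p = 0.152) and with KO1 as the only KO line (0.78, adjusted p = 0.328). Tigit, an inhibitory receptor of lymphocytes, was at most 0.920 CPM in WT libraries of either state and in unactivated KO libraries, and 1.62, 1.99 and 4.49 CPM in activated KO libraries, which lay above all activated WT libraries (difference 1.67 ± 0.34, adjusted p = 0.0157). Arhgap6 stayed under 1 CPM, at 0.237 to 0.346 CPM in activated WT and 0.465 to 0.905 CPM in activated KO libraries (difference 2.47 ± 0.51, adjusted p = 0.0161, and 0.0831 without the pair of libraries that stood apart).

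The remaining 8 called gene values all had a higher activation change in KO. Their differences ran from 0.79 ± 0.18 for Slc23a2, a vitamin C transporter, to 4.44 ± 1.01 for Zfp36l1, a protein that destabilises mRNAs with AU-rich elements. Zfp36l1 was scattered, with 0.592 to 8.66 CPM in unactivated WT libraries. Activated parental WT libraries held 0 to 0.260 CPM, and unactivated KO1 and KO2 libraries went down to 0. Its fitted value is therefore no measure of size. Its call was lost in DESeq2 (adjusted p = 0.0565), without the pair of libraries that stood apart (3.45, adjusted p = 0.102) and in 13 of the 24 fits that left out 1 library. Slc23a2, Mrps31 and Nectin1 were lost in 13, 16 and 14 of those fits, LOC115485728 in 6 and Prag1 in 2. Without the pair of libraries that stood apart, Slc23a2 (0.77, adjusted p = 0.0615), Nectin1 (1.77, adjusted p = 0.181) and Prag1 (1.88, adjusted p = 0.0669) were also lost. The others were Gm34346 and Gm4827. At rest, group means were lower in both KO lines than in both WT lines for these 8 gene values except Gm4827 and Nectin1. After activation, the group means of Mrps31, LOC115485728 and Prag1 did not divide by genotype. Of all 25 called gene values, 14 were called in each of the 24 fits, and none changed sign in any fit run.

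**Figure D3:**
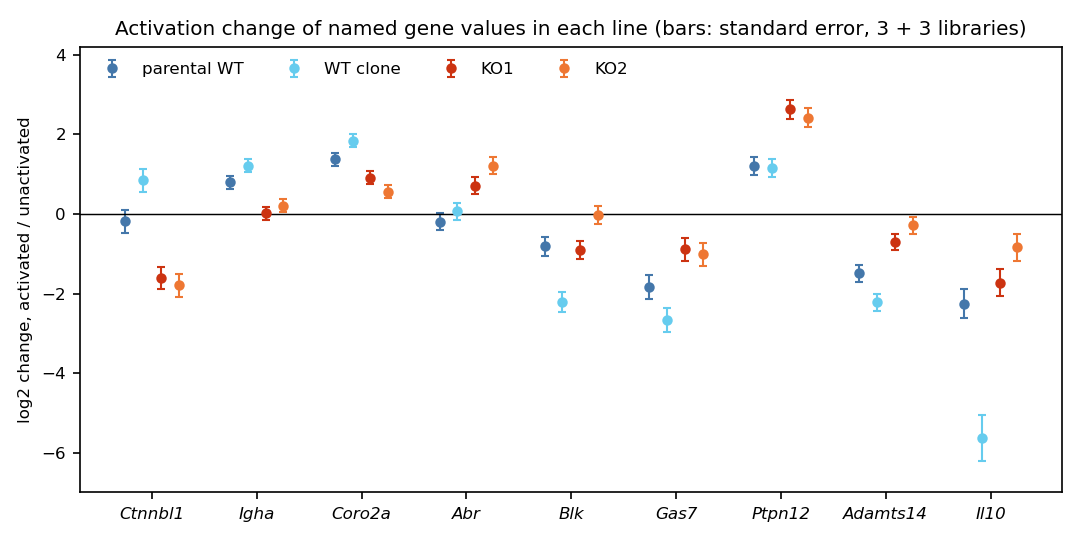
Log2 activation change (y axis) of the 9 gene values named by rule, in each of the 4 lines; points are estimates and bars standard errors from 3 unactivated and 3 activated libraries. Both KO lines lie on the same side of both WT lines for each gene except Blk, where KO1 (-0.91) and parental WT (-0.81) coincide, and the WT clone's Il10 change (-5.63) lies farthest from 0.

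**Figure D4:**
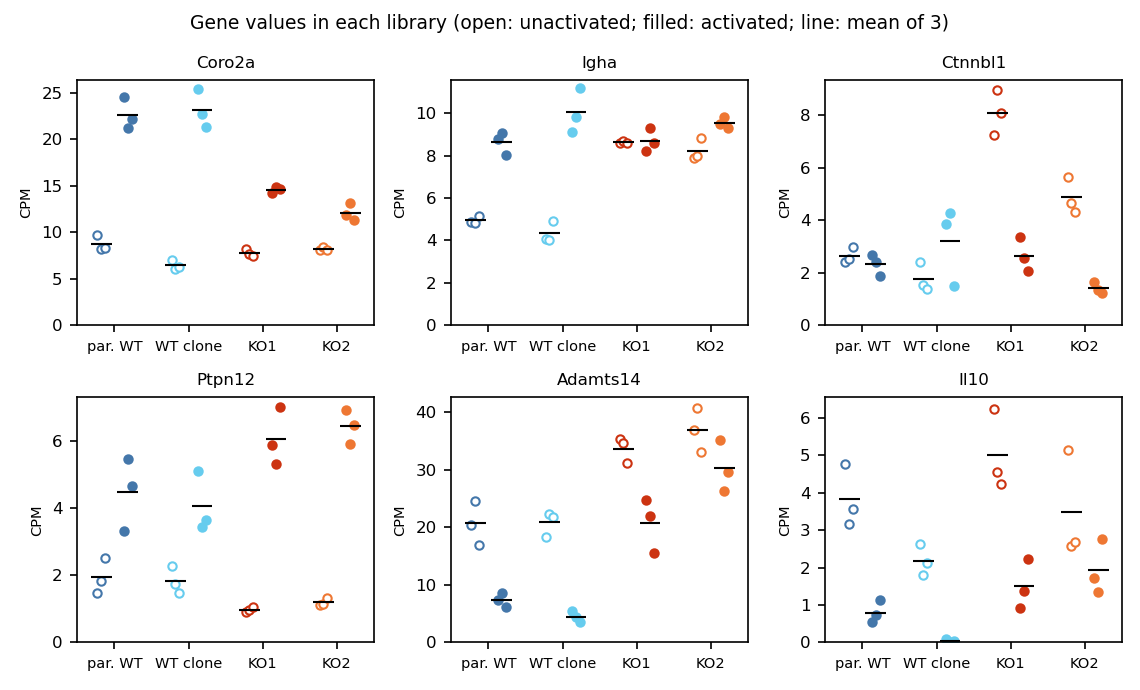
CPM (y axis, linear from 0) of 6 gene values in each of the 24 libraries, by line (x axis), unactivated as open and activated as filled circles, with the mean of 3 as a line. Activated Coro2a is at 21.2 to 25.4 CPM in WT and 11.3 to 14.8 CPM in KO libraries, and unactivated Ctnnbl1 and Igha are higher in KO than in WT.

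Promoter sequences were available in RefSeq (GRCm38.p6) for 4 of the 9 gene values named by rule, and 3 are shown because their genes had the clearest examples of a smaller rise, a smaller fall and a fall in KO alone. Each run is the 250 bases before the annotated start, 5′ to 3′ on the gene's strand, at chr4:46601930-46602179 (minus strand) for Coro2a, chr10:61273420-61273669 (minus strand) for Adamts14 and chr2:157737151-157737400 (plus strand) for Ctnnbl1. Capitals mark any match, on either strand, to motifs bound by factors of B cell activation: NF-kB (GGGA and CC with any 4 bases between), SMAD (CAGACA), E-box (CACGTG), octamer (ATGCAAAT), IRF (GAAA repeated after any 2 bases), ETS (CCGGAAGT) and STAT6 (TTC and GAA with any 4 bases between).
Coro2a: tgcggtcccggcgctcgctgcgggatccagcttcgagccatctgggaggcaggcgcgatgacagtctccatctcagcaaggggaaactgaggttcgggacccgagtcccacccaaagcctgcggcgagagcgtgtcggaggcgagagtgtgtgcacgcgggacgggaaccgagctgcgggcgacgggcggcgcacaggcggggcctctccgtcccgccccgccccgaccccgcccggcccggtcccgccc
Adamts14: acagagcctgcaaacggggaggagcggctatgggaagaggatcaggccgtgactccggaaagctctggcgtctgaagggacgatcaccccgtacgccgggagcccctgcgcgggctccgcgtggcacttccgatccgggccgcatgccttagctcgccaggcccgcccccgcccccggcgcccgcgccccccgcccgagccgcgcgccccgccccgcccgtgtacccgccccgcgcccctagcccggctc
Ctnnbl1: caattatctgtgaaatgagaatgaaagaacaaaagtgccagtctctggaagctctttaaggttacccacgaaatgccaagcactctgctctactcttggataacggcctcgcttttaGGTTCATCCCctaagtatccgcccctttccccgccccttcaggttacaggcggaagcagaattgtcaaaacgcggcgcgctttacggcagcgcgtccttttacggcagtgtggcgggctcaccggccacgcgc
The capitals in the Ctnnbl1 run are a match to the NF-kB letters on the other strand, 133 bases before the start, and no other match was found in the 3 runs. Of all 32851 windows of this length, 17.6% held the NF-kB letters, 17.1% the SMAD, 6.02% the E-box, 1.60% the octamer, 2.98% the IRF, 2.88% the ETS and 5.85% the STAT6 letters. The GC content was 73.6% for Coro2a, 76.4% for Adamts14 and 53.6% for Ctnnbl1. A match describes letters and not binding.

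In the Igh locus, the enhancer between the joining segments and Ighm and the Ighm transcription unit responded differently in the 2 genotypes. The mu enhancer element was 25.8, 34.9 and 46.4 CPM in unactivated WT and 65.8, 75.7 and 100.2 CPM in unactivated KO libraries, with no overlap. After activation it was 51.0, 59.6 and 67.3 CPM in WT and 43.7, 53.2 and 62.3 CPM in KO, and the genotypes overlapped. It rose in both WT lines (0.53 ± 0.15 in parental WT, 0.96 ± 0.15 in the WT clone) and fell in both KO lines (-0.75 ± 0.15 in KO1, -0.41 ± 0.15 in KO2). The difference of -1.32 ± 0.15 (adjusted p = 8.71e-05) was the only call among the 4 Igh elements that passed the filter (25%, with 3 of 4 or 75% at an unadjusted p under 0.05), and it held in each of the 24 fits that left out 1 library, from -1.41 to -1.23.

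A region of 10710 bases at chr12:113418607-113429316, which overlaps Ighm, went the other way. It fell from 415, 556 and 597 CPM to 101, 176 and 213 CPM in WT, and from 350, 377 and 426 CPM to 238, 270 and 297 CPM in KO. KO was lower by its median before activation, with overlap, and every activated KO library was above every activated WT library. The changes were -1.55 ± 0.13, -1.78 ± 0.13, -0.62 ± 0.13 and -0.35 ± 0.13 in parental WT, the WT clone, KO1 and KO2 (difference 1.18 ± 0.13, adjusted p = 4.78e-05), and this was 1 of 2 regions called in all 4 pairings of lines.

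The other of these 2 regions, of 737 bases at chr12:113314446-113315182, lies outside genes between Igha and Ighm. It had 722 counts in unactivated and 2143 in activated WT libraries, at 2.46 to 5.38 and 7.06 to 14.4 CPM. In KO it had 0 counts in all 6 unactivated libraries and 294 in the activated ones, at 0.520 to 3.06 CPM. The WT ratio of activated to unactivated was 2.70 (95% exact interval 2.48 to 2.94, counting error only), and in KO activated libraries were at least 94.6-fold higher, against a floor of 3 counts over the unactivated group. The adjusted p of the difference was 0.000213. KO levels stayed below WT levels in both states, so the larger ratio came with a lower level. A region of 646 bases at chr12:113362281-113362926, 1049 bases from Ighg3, was alike at low counts, with 78 and 87 counts in unactivated and activated WT and 1 and 16 in KO libraries. Its WT ratio was 1.01 (0.739 to 1.39) and its KO ratio 15.4 (2.40 to 648), and the call (adjusted p = 0.0205) was lost in 6 of the 24 fits that left out 1 library.

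RNA from the 3 prime regulatory region was higher in KO in both states at the regions given below and at hs3b. At hs3a the genotypes overlapped after activation, at 0.639 to 1.23 CPM in WT and 0.795 to 1.46 CPM in KO libraries. No target there was called for a difference in the activation change. The region at chr12:113240928-113245636 was 0.479, 0.850 and 1.27 CPM in unactivated and 1.13, 1.61 and 2.19 CPM in activated WT libraries, and 5.85, 6.78 and 8.27 and then 7.0, 7.83 and 11.2 CPM in KO. The gap between the genotypes was 3.01 log2 units before and 2.45 after activation, so the difference was -0.56 ± 0.31 (adjusted p = 0.601). Its neighbours had differences of 0.42 ± 0.20 at chr12:113215821-113232872, -0.72 ± 0.44 at chr12:113235821-113237901 and -0.32 ± 0.37 at chr12:113248085-113250566 (adjusted p = 0.485, 0.649 and 0.896). The named elements hs3a and hs3b had -0.66 ± 0.31 and 1.79 ± 0.97 (adjusted p = 0.477 and 0.588), and hs3b had only 7 and 2 counts in unactivated and activated WT libraries. The alpha switch intron element, whose transcription precedes recombination to Igha, rose in all 4 lines, by 1.51 ± 0.29, 1.22 ± 0.29, 1.57 ± 0.29 and 2.78 ± 0.31 in parental WT, the WT clone, KO1 and KO2 (difference 0.81 ± 0.29, adjusted p = 0.258).

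Over the heavy and light chain loci together, 8 of 54 tested regions were called (14.8%), against 0.678% of the 11210 regions elsewhere, a grouping made after the values were seen. Of the 8, 4 lay on chromosome 12 and 4 of 26 in the kappa locus on chromosome 6, and none of 14 on chromosome 16. The kappa regions were those overlapping Igkv9-124 (-2.09), Igkv10-96 (0.59), Igkj4 (0.65) and Igkv12-89 (2.57). Immunoglobulin segments are near copies of each other, so their single values are uncertain.

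Regions outside genes were called about as often as others, 21 of 2697 (0.779%), against 39 of 6939 regions inside 1 gene (0.562%) and 24 of 1628 at gene ends or over several genes (1.47%). Of those outside genes, 8 passed the rule for naming, the one at 0 counts above among them. The region at chr9:116243466-116245606, 48580 bases from Gm4668, was 1.17, 1.64 and 2.83 CPM in unactivated WT and 0.239, 0.435 and 0.713 CPM in unactivated KO libraries, with no overlap. After activation it was 5.93, 7.07 and 10.0 CPM in WT and 6.25, 7.61 and 7.86 CPM in KO, so both genotypes reached one level from different starts. Its changes were 2.29 ± 0.27, 1.96 ± 0.27, 4.51 ± 0.31 and 3.65 ± 0.29 in parental WT, the WT clone, KO1 and KO2 (difference 1.95 ± 0.27, adjusted p = 0.000502).

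The region at chr13:63790900-63800691, 10288 bases from Ercc6l2, started level and diverged. It was 0.3003, 0.626 and 0.854 CPM in unactivated WT and 0.514, 0.606 and 0.792 CPM in unactivated KO libraries, and 2.34, 2.93 and 3.69 against 6.82, 9.04 and 17.3 CPM after activation, with no overlap. The changes were 2.46 ± 0.34 and 2.14 ± 0.34 in the WT lines and 3.91 ± 0.36 and 4.11 ± 0.36 in KO1 and KO2 (difference 1.71 ± 0.33, adjusted p = 0.0125). The call was lost with parental WT as the only WT line (adjusted p = 0.182) and with KO1 or KO2 as the only KO line (adjusted p = 0.109 and 0.0565). The region at chr10:66951180-66957163, 30796 bases from 1110002J07Rik, also rose more in KO, from 0.592 to 0.936 CPM at rest to 2.57 to 5.13 CPM, against 1.10 to 1.70 CPM in activated WT libraries (difference 1.43 ± 0.23, adjusted p = 0.00263). With the WT clone as the only WT line its difference was 1.11 (adjusted p = 0.077), and with KO1 as the only KO line 1.02 (adjusted p = 0.157).

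Others fell in WT, with no change that passed the test in KO. At chr15:12007750-12011347, 11712 bases from Sub1, levels went from 3.28, 4.70 and 6.57 CPM to 1.29, 2.12 and 2.61 CPM in WT and from 4.51, 6.32 and 7.69 CPM to 4.19, 6.03 and 8.54 CPM in KO, with no overlap after activation (difference 1.24 ± 0.24, adjusted p = 0.0127). This was 0.82 (adjusted p = 0.51) with parental WT as the only WT line and 0.87 (adjusted p = 0.315) with KO1 as the only KO line. At chr7:80828335-80833538, 12786 bases from Iqgap1, the median went from 3.09 to 1.36 CPM in WT and from 1.27 to 1.42 CPM in KO (difference 1.36 ± 0.32, adjusted p = 0.0429), a call lost in 19 of the 24 fits that left out 1 library.

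A pair of regions on chromosome 14 had a lower change in KO. At chr14:64037349-64038170, 3843 bases from Rp1l1, WT rose from 0.230, 0.375 and 0.504 CPM to 8.60, 10.6 and 14.5 CPM and KO from 0.342, 0.731 and 1.06 CPM to 5.37, 6.69 and 9.05 CPM. The changes were 4.56 ± 0.29, 5.23 ± 0.30, 3.06 ± 0.27 and 3.37 ± 0.27 in parental WT, the WT clone, KO1 and KO2 (difference -1.68 ± 0.26, adjusted p = 0.00182). At chr14:15746605-15747447, 27657 bases from Gm31804, unactivated KO libraries held 3.57, 4.03 and 5.54 CPM against 0.147, 0.707 and 1.45 CPM in WT, and all activated libraries were at or under 0.217 CPM (difference -2.19 ± 0.37, adjusted p = 0.0141, lost in 3 of the 24 fits that left out 1 library). With parental WT as the only WT line it was -1.32 (adjusted p = 0.627) at chr14:15746605-15747447 and -1.34 (adjusted p = 0.11) at chr14:64037349-64038170, and with KO1 as the only KO line the former was -1.94 (adjusted p = 0.0994).

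**Figure D5:**
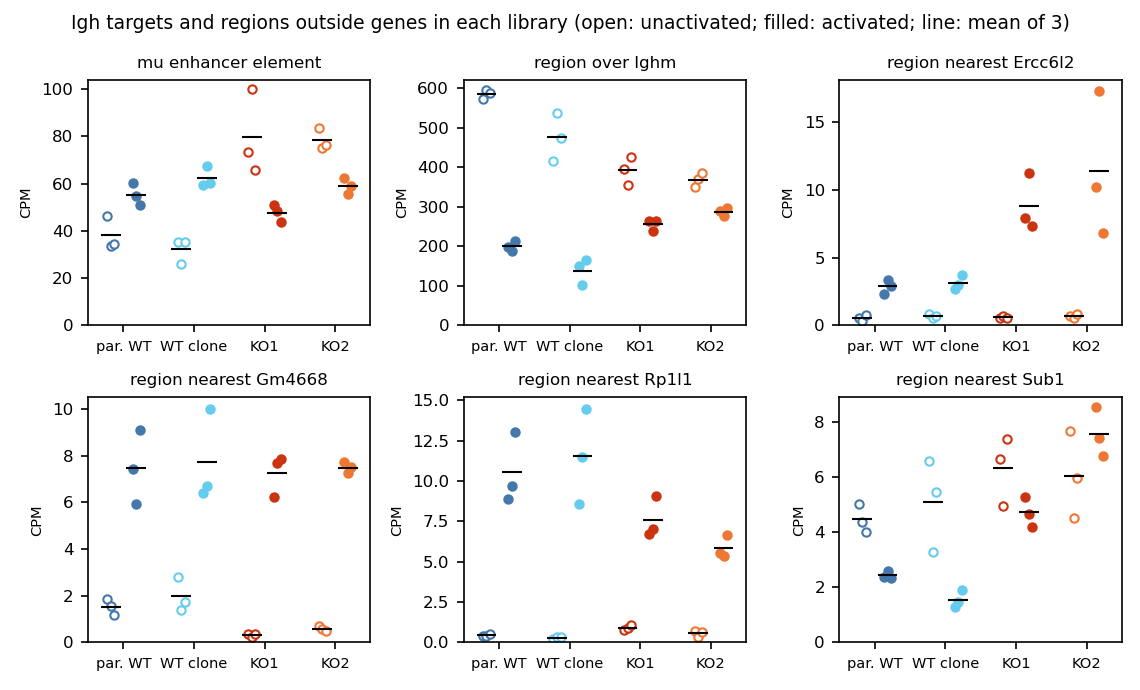
CPM (y axis, linear from 0) of the mu enhancer element, the region over Ighm and 4 regions outside genes, each named by its nearest gene, in the 24 libraries, by line (x axis), unactivated as open and activated as filled circles, with the mean of 3 as a line. The mu enhancer element rises in WT and falls in KO, and the region nearest Gm4668 starts at 0.239 to 0.713 CPM in KO against 1.17 to 2.83 CPM in WT.

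The following called regions in or at the ends of genes were chosen for naming after their values were seen. A region at the end of Irf8, a transcription factor of B and myeloid cells, had a difference of 1.77 (adjusted p = 0.0387), one at Pim1, a kinase induced by cytokines, 0.95 (adjusted p = 0.0469), and one inside Ikzf1, the lymphoid transcription factor Ikaros, 0.99 (adjusted p = 0.0372). For Ikzf1, however, 3 of 9 tested regions were positive, from -0.37 to 0.99. The gene values of Irf8 (1.82 ± 0.56, adjusted p = 0.155) and Ikzf1 (0.64 ± 0.20, adjusted p = 0.174) were not called. A region inside Rbpj, the DNA-binding factor of Notch signalling, had 1.47 (adjusted p = 0.0265), with 2 of 3 tested regions positive, and one over the noncoding RNA gene Neat1 had 1.05 (adjusted p = 0.0101). By contrast all 6 tested regions of Pkig, an inhibitor of protein kinase A, were positive, from 0.83 to 1.80, and all 4 of Cmah, an enzyme of sialic acid synthesis, were negative, from -1.16 to -0.38, with 1 region called in each.

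Transcripts held most of the calls but could not be named, since no table used here pairs the transcript identifiers with genes. Called transcripts were longer and more abundant than all tested ones, with a median length of 2764.5 against 1803 bases and a median of 33.2 against 2.09 CPM in the group where each was highest. Differences pass the test more easily at higher counts, and how much of this contrast follows from that was not tested. The most extreme by rule were ENSMUST00000103423 and ENSMUST00000103418 on the higher side. ENSMUST00000103423 had 4930 counts in unactivated and 3638 in activated WT libraries and 1 and 411 in KO libraries. Its WT ratio was 0.671 (95% exact interval 0.643 to 0.701) and its KO ratio 397 (70.8 to 15712). ENSMUST00000103418 had 3070 and 16993 counts in WT and 1 and 1602 in KO libraries, with ratios of 5.03 (4.84 to 5.23) and 1547 (277 to 61132). As at the Igh region with 0 counts, the KO levels stayed below the WT levels in both states.

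On the lower side, ENSMUST00000077925 was 11.5, 14.7 and 19.5 CPM in unactivated and 23.5, 41.1 and 67.9 CPM in activated WT libraries. Levels in the KO clones were unlike and are given singly. KO1 libraries held 29.3 to 42.2 CPM before and 10.7 to 14.4 CPM after activation. KO2 libraries held 5.70 to 6.88 CPM before and 0.577 to 0.815 CPM after. At rest ENSMUST00000077925 was thus higher in KO1 and lower in KO2 than in every WT library, and after activation lower in both. It rose in both WT lines (1.08 ± 0.23 and 1.88 ± 0.23) and fell in both KO lines (-1.55 ± 0.23 and -3.16 ± 0.26), and its difference of -3.84 ± 0.24 (adjusted p = 1.55e-07) was called in all 4 pairings of lines. ENSMUST00000067398 rested on the WT clone, in which it was at 0 in the 3 unactivated libraries and at 5.32 to 9.91 CPM in the activated ones. In parental WT it changed by 0.62 ± 0.66, and with that line as the only WT line its difference was -1.22 (adjusted p = 0.914).

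For gene groups, 24 lists of genes with roles in B cells, signalling, metabolism and chromatin were counted. They held 260 measured genes, of which 4 were called (1.54%, against 0.557% of all gene values) and 35 had an unadjusted p under 0.05 (13.5%, against 10.8%). DESeq2 called 13 of the 260, against 52 of all 4485 gene values (1.16%). Members for which DESeq2 gave no adjusted p, such as Irf8, were counted as not called. The 4 were Blk among 16 genes of B cell identity, Gas7 among 18 of motility and adhesion, Ctnnbl1 among 4 of RNA exosome and splicing, and Il10 among 15 cytokines and receptors. The other 20 lists had no call by edgeR's quasi-likelihood test, and 21 of their 209 genes had an unadjusted p under 0.05 while DESeq2 called 4. Among the 22 lists with at least 5 measured members the median difference ran from 0.02 to 0.58, beside 0.12 for all gene values.

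Class switching and AID factors had 7 measured genes of 25, none with an unadjusted p under 0.05 and none called by DESeq2, and a median difference of 0.04. Ctnnbl1, whose product is known to bind AID, was not in this list but in that of RNA exosome and splicing. TGF-beta and SMAD targets had a median of 0.07 over 9 genes, with 1 unadjusted p under 0.05 (Skil, 1.00 ± 0.32, adjusted p = 0.203). IL-4 and STAT6 targets had the highest median of 0.58 over 5 genes, with no unadjusted p under 0.05 and no DESeq2 call. CD40 and NF-kB targets had a median of 0.29 over 16 genes, among them Birc3, an inhibitor of apoptosis (0.83 ± 0.20, adjusted p = 0.0574 in edgeR and 0.00425 in DESeq2). B cell receptor signalling had 0.24 over 18 genes, with 3 unadjusted p under 0.05 (Inpp5d, Pik3ap1 and Ptpn6) and no DESeq2 call. The plasma cell program had 0.04 over 8 genes and the cell cycle and replication list 0.09 over 15, both with no unadjusted p under 0.05 and no DESeq2 call.

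The chromatin readers and ZMYND8-associated factors had a median of 0.14 over 12 genes and the Mediator and elongation factors 0.13 over 11, again with no unadjusted p under 0.05 and no DESeq2 call. DESeq2 called 9 list members that edgeR did not. Of these, 7 had a positive difference, namely Plxnc1, Lcp1, Rbpj, Birc3, Atp6v0e2, Il21r and Ikzf1, from 0.64 to 1.10, and Sema4b (-1.07 ± 0.32) and Cmah (-0.83 ± 0.21) were negative. Rbpj, at 1.06 ± 0.28 (adjusted p = 0.0821 in edgeR, 0.00854 in DESeq2), was the one member of the Notch list among them, whose median was 0.22 over 11 genes. The scaling bears on such small medians: with the gene values scaled by their own factors, the median over all gene values moved from 0.12 to 0.03.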

How the data were processed

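Estimated counts per target were deposited by the authors as 1 kallisto table per library. Per the submitters' processing notes, kallisto 0.43.0 was used, with the build GRCm38.p5, and DESeq2 is also listed. Which annotation release, index and strand option were used is not given in the sources used here. Kallisto shares reads between alike targets. The TPM values in the same tables, scaled by the authors for effective length, were not tested. The other 9 samples were not analysed here.

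Counts were rounded to whole numbers, filtered with filterByExpr by group, scaled by TMM and fitted over the 24 libraries with edgeR 4.0.16 (quasi-likelihood, R 4.3.3, limma 3.58.1). A call is a Benjamini-Hochberg adjusted p under 0.05 over all targets of the fit, 49806 transcripts, 11264 regions and 4 Igh elements together. Gene values were fitted in a table of their own (4485 tested) with the library sizes of all targets. Standard errors are the absolute log2 value divided by the square root of F. Named were the called gene values with at least 5 CPM in a group, up to 10 per direction and of 1 sign in the 4 pairings of lines, leaving out Gm and Rik symbols, up to 4 called members of each list, called regions outside genes with at least 2 CPM (up to 6 per direction), the 2 transcripts per direction with the largest differences at 5 CPM or more, and Zmynd8 and Igh targets. Other names were chosen after their values were seen. The members, lists and rules were chosen with earlier results of these data known. The scripts were tested on simulated data. Intervals cover counting error only. Replicates differed by more than sampling noise, so none was counted as a repeat. Alternatives were DESeq2 1.42.0, RLE scaling, no low-count filter, a replicate block, single lines per genotype, counts summed per line, any overlap with a gene, and leaving out each library. After seeing the data, gene values scaled by their own factors and fits without the libraries that stood apart were added.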

Additional observations from a re-analysis of the deposited data

Results flagged for a closer look

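The values below are differences in the activation change, KO lines minus WT lines (log2), that passed edgeR's quasi-likelihood test of the difference itself, with the limits given with each result above. For gene values they were -2.03 for Ctnnbl1, -0.89 for Igha, -0.87 for Coro2a, 1.03 for Abr, 1.30 for Gas7, 1.35 for Ptpn12, 1.36 for Adamts14, 2.66 for Il10 and 1.04 for Blk. In the Igh locus they were -1.32 for the mu enhancer element and 1.18 for the region over Ighm, chr12:113418607-113429316. None of these gene values was called with parental WT as the only WT line. With KO1 as the only KO line, Coro2a (adjusted p = 0.16), Abr (0.328), Gas7 (0.118), Adamts14 (0.051), Il10 (0.0784) and Blk (0.549) were not called. With KO2 as the only KO line, Igha (0.0846) and Gas7 (0.245) were not.

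Outside genes the differences were -2.19 at chr14:15746605-15747447, -1.68 at chr14:64037349-64038170, 1.24 at chr15:12007750-12011347, 1.36 at chr7:80828335-80833538, 1.43 at chr10:66951180-66957163, 1.71 at chr13:63790900-63800691 and 1.95 at chr9:116243466-116245606. Where a group was at or near 0 counts the fitted value depends on the prior count and is no measure of size. This holds for 7.11 at chr12:113314446-113315182, 3.46 at chr12:113362281-113362926, 7.70 for ENSMUST00000103418, 8.60 for ENSMUST00000103423 and -6.32 for ENSMUST00000067398. The same limit applies to the Il10 value above, since activated WT clone libraries held 0 to 0.0945 CPM. With parental WT as the only WT line, the Il10 difference was 0.97. It applies also to -2.19 at chr14:15746605-15747447, where activated WT clone libraries held 0.0290 to 0.0912 CPM. ENSMUST00000077925, at -3.84, had counts in every group.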

How the results depend on the processing

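None of the 40 named called results changed sign in 1450 alternative values, but which were called depended on the lines. Counts below are those with a higher, then those with a lower, activation change in KO. With parental WT as the only WT line, 110 and 42 transcripts, 7 and 5 regions and 0 and 0 gene values were called. With the WT clone alone, 12 regions were lower. KO1 alone gave 142 and 79 transcripts, 20 and 6 regions and 3 and 3 gene values, and KO2 alone 177 and 78 transcripts and 23 and 9 regions. Counts summed per line gave 0 and 0 transcripts, 0 and 0 regions and 4 and 2 gene values, with 3 of the 25 called gene values among them. Without a low-count filter the counts were 193 and 95, 26 and 7, and 56 and 23. DESeq2 called 930 and 696 transcripts, 128 and 37 regions and 43 gene values higher. Any overlap with a gene gave 44 and 15 gene values, and their own scaling 11 lower. Leaving out 3 unactivated libraries that stood apart (the pair above and KO1 replicate 2) left 9 gene values higher.

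Leaving out each library in turn gave 281 to 425 transcripts higher and 134 to 212 lower, 39 to 56 regions higher and 12 to 20 lower, and 10 to 31 gene values higher and 4 to 8 lower. The 10 came without activated KO2 replicate 1, and the 31 without unactivated parental WT replicate 1 or unactivated WT clone replicate 3. The lowest transcript counts on the lower side, 134 and 143, came without unactivated KO2 replicates 3 and 1. Reversals were seen only for targets that were not called: hs3b (-0.0425 without the pair of libraries that stood apart, -0.17 without the 3), and 0.50 at chr12:113235821-113237901 and 0.0436 at chr12:113248085-113250566 with parental WT alone. The cause was not tested.

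With the replicate number as a block, 34 gene values were higher and 11 lower, and all 40 named called results stayed called. Whether the numbers pair the libraries is unsure. Correlations over 84 same-number pairs averaged 0.105, against -0.051 for other numbers, and 16 of 24 libraries correlated best with one of their own number, but the pairs ran from -0.55 to 0.56 and 44 were over 0.1.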
